A study of Mus musculus with 4 samples.

Results

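Neurotrophins are secreted growth factors that keep sensory and other neurons alive and guide their growth, and outside the nervous system their receptors are found in several epithelial and mesenchymal tissues. Each is made as a longer precursor that proteases cut to the mature ligand. Mature ligands act through the Trk receptor tyrosine kinases, in which Ntrk2 (TrkB) binds brain-derived neurotrophic factor (Bdnf) and Ntrk3 (TrkC) binds neurotrophin-3 (Ntf3), whereas Ngfr is a death-domain receptor that binds all of them and Sort1 (sortilin) sorts proteins between membranes and serves with Ngfr as a receptor of the precursors. The expression of these 6 genes was examined in the E1, E2, M1 and M2 cell lines. A probe set, the group of array probes summarised to 1 value, was listed under the gene's symbol for 5 of the 6, with 1 probe set for each, out of 35556 probe sets on the array and 23410 with a gene symbol. Genes were looked up among probe sets with 1 symbol, and those listed under several symbols were not searched. Under Ntf3 this lookup found none, so Ntf3 was not analysed here. The genes were taken by name, except Ntrk3, which was chosen by its log2 level, high in M1 alone, and its levels are therefore given as a description with no test.

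All 4 lines were clones grown by limiting dilution from sorted cells of a spontaneous mammary tumor of an FVB Tg MMTV/neu mouse, in which the MMTV promoter drives rat neu (ErbB2) in mammary tissue. The mesenchymal-like lines M1 and M2 came from cells low in neu and CD24 and were grown in MEGM with 2% serum, bovine pituitary extract, epidermal growth factor, hydrocortisone and insulin, while the epithelial lines E1 and E2 came from cells high in neu and CD24 and were grown in RPMI with 20% serum. The effects of medium and of the sorted type cannot be told apart. RNA of each line was hybridised once, so that a type holds 2 clones, and differences between single lines have no replicate check.

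Markers followed the type labels in part. The adhesion genes Cdh1 and Epcam were at log2 levels of 6.70 and 5.77 in M1 and 6.51 and 5.46 in M2, against 12.15 and 12.70 in E1 and 12.31 and 12.76 in E2, while the keratin genes Krt8 and Krt18 lay between 13.12 and 13.69 in all lines and Vim between 12.79 and 13.82. By limma 4 of 6 mesenchymal markers were higher and 0 lower in the M lines, and 3 of 6 epithelial markers were lower and 0 higher, while 1.72% of all probe sets were higher and 2.02% lower. The median level of all probe sets lay between 6.75 and 6.85 in the 4 arrays, with 6.78 over all values, and no source used here gives the level of background. Among probe sets with a symbol, the median difference between E1 and E2 was 0.14 on the log2 scale and the 95th percentile 0.63, and between M1 and M2 they were 0.18 and 1.10, and these 95th percentiles are used below as the spread between clones of 1 type. With so few arrays, precision is limited by their number.

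The promoter windows of Ntrk2 and Ngfr, the receptors with even levels over the lines, differ in their GC boxes. The set of windows used here, 250 bases before a start annotated in RefSeq (GRCm38.p6), covered Ntrk2, Ngfr, Bdnf and Ntf3. It held none for Ntrk3 or Sort1, so theirs are not shown. Those of Ntrk2 and Ngfr are printed here 5′ to 3′. Capitals mark the GC box GGGCGG, a motif bound by Sp1-type factors, or its complement CCGCCC.
Ntrk2 chr13:58806319-58806568 (+): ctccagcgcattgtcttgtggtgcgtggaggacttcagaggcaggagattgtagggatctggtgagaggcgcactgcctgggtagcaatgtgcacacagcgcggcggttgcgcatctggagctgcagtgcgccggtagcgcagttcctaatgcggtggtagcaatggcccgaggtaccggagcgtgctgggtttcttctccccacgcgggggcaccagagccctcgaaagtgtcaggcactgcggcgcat
Ngfr chr11:95587699-95587948 (-): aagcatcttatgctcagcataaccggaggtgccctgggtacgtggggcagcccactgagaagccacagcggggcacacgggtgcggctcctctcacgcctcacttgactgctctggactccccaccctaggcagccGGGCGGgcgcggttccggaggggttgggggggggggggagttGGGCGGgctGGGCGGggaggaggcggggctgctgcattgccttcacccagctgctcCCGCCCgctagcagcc
The Ngfr window held the GC box at 4 places on the 2 strands and the Ntrk2 window at 0, and 32.7% of 32851 windows of this length held it at least once. The Ntrk2 window had 19 CG dinucleotides and the Ngfr window 16, against a median of 6 over all windows. Bdnf has 7 such windows, with 1 to 13 CG dinucleotides, and its probe set was annotated with 11 RefSeq transcripts, so that its value pools transcripts from several starts.

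Ntrk3, the neurotrophin-3 receptor, was high in M1 alone. Its log2 level was 9.84 in M1, against 5.91 in M2, 5.79 in E1 and 5.97 in E2. M1 stood 3.96 above the mean of the other lines, 5.89 ± 0.09 (SD, n = 3), 14.7-fold above E2, the nearest line, and 15.3-fold above M2 in the values as deposited. With values below the median of all raised to that median, the difference of M1 from M2 was 3.07 in place of 3.94 on the log2 scale. The other 3 lines followed in the order E2, M2, E1, with gaps of 0.06 and 0.12 that are smaller than either spread between clones, and all 3 lay below the median of all values. These levels chose the gene, and nothing is read from the background share, in which M1 was at least 10-fold above every other line in 0.162% of 23410 probe sets. The probe set is annotated with 2 RefSeq transcripts, and transcripts with and without the kinase domain, both of which Trk genes are known to make, cannot be told apart in its value. In RNA from a whole culture, fewer cells with a transcript and less of it per cell cannot be told apart either.

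**Figure D1:**
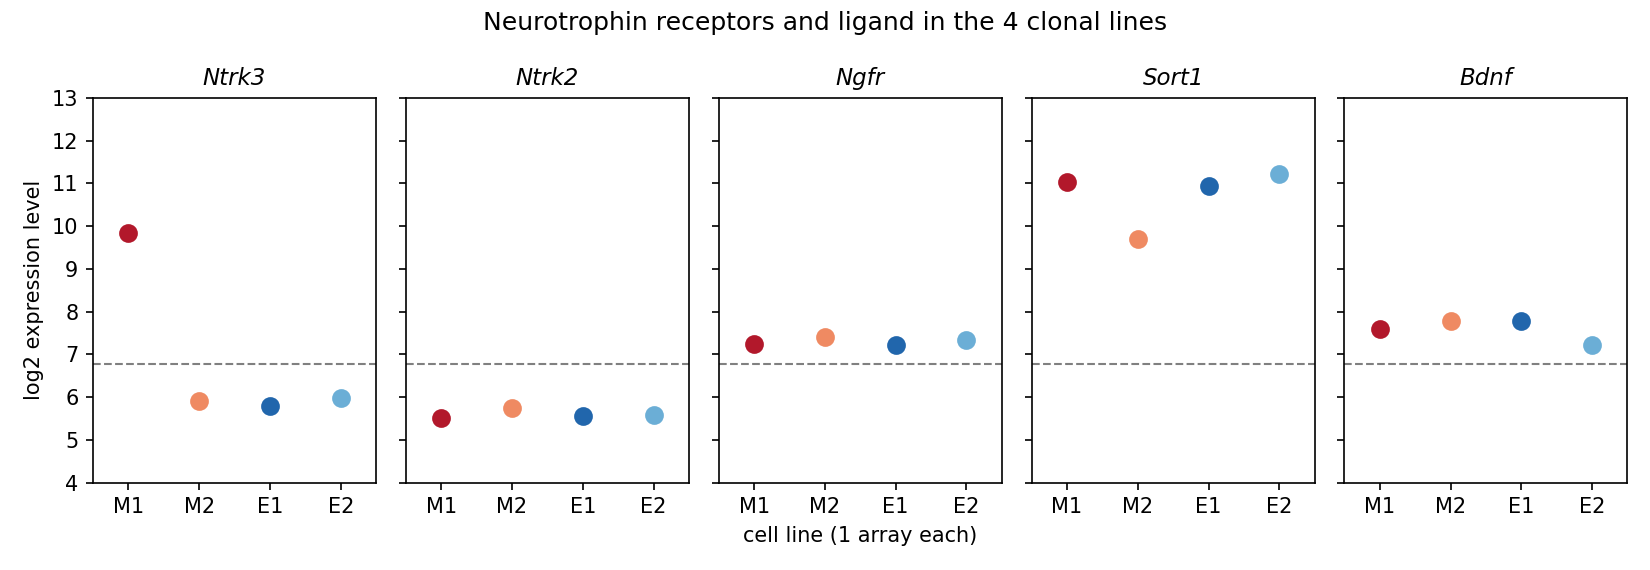
Points give the log2 expression level of the 5 measured genes in M1, M2, E1 and E2, 1 array per line, and the dashed line is the median of all values, 6.78. Ntrk3 is at 9.84 in M1 and between 5.79 and 5.97 in the other lines, and Sort1 is lowest in M2, at 9.69.

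Ntrk2, the other Trk receptor described here, which binds Bdnf, did not share this pattern. It had log2 levels of 5.52 and 5.75 in M1 and M2, against 5.56 and 5.57 in E1 and E2, below the median of all values in every line. The levels of the M and E lines overlapped, and no gap between neighbouring lines, at most 0.18, exceeded either spread. The mean was 5.64 ± 0.17 in the M lines and 5.56 ± 0.01 in the E lines (SD, n = 2 each). The difference of the M from the E lines was 0.07, with a 95% interval from -0.29 to 0.44 (limma adjusted p = 0.868).

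Ngfr, which binds all neurotrophins and marks basal mammary cells among others, was as even. Its log2 level was 7.25 in M1 and 7.41 in M2, against 7.22 in E1 and 7.33 in E2, with M and E lines interleaved. The mean was 7.33 ± 0.12 in the M lines and 7.28 ± 0.07 in the E lines (SD, n = 2 each), a difference of 0.05 with an interval from -0.29 to 0.40 (limma adjusted p = 0.901). The 6 basal and myoepithelial markers listed with it, among them Krt5, Krt14 and Trp63, lay between 6.09 and 7.36 in all lines, with 0 called by limma in either direction and 0 at an unadjusted p under 0.05.

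Sort1, the sorting receptor, was above the median of all values in every line and lowest in M2. It was at 11.04 in M1 and 9.69 in M2, against 10.93 in E1 and 11.23 in E2. M2 stood alone, 2.36-fold below E1, the nearest line, and M1 lay between the epithelial lines. The gap of 1.24 below E1 is larger than the 95th percentile over all probe sets between E1 and E2 and between M1 and M2, while the gaps among E2, M1 and E1, 0.19 and 0.10, are not. Sort1 averaged 10.36 ± 0.95 in the M lines and 11.08 ± 0.21 in the E lines (SD, n = 2 each), a difference of -0.71 with an interval from -2.11 to 0.68 that did not pass (limma adjusted p = 0.584). The difference was -1.39 with M1 left out and -0.04 with M2 left out, where the remaining M line is a single array and the spread comes from E1 and E2 alone. In these fits limma called 1761 and 1879 of the 23410 probe sets, Sort1 among them in the fit without M1 (adjusted p = 0.0386) and not in that without M2 (adjusted p = 0.954).

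Bdnf, the ligand, varied most between the epithelial clones. It was at 7.59 in M1 and 7.79 in M2, against 7.78 in E1 and 7.22 in E2. M2 and E1 were level, with a gap of 0.01, and E2 was lowest, 0.56 below E1, a difference within the 95th percentile of that between the 2 clones over all probe sets. The mean was 7.69 ± 0.14 in the M lines and 7.50 ± 0.39 in the E lines (SD, n = 2 each). The difference was 0.19, with an interval from -0.46 to 0.84 (limma adjusted p = 0.784), and it took the other sign without E2, at -0.09.

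Of the 4 genes that could be tested between the types, limma called 0, and 0 had an unadjusted p under 0.05, while 3.73% of 23410 probe sets were called and 18% had an unadjusted p under 0.05. The range over the 4 lines set the genes apart more than the types did. It was 0.19 for Ngfr, 0.23 for Ntrk2 and 0.57 for Bdnf, against a median of 0.39 over all probe sets. For Sort1 it was 1.53 and for Ntrk3 4.06, and 89.8% and 98.1% of all probe sets had a smaller range, where that of Ntrk3 follows from its choice.

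**Figure D2:**
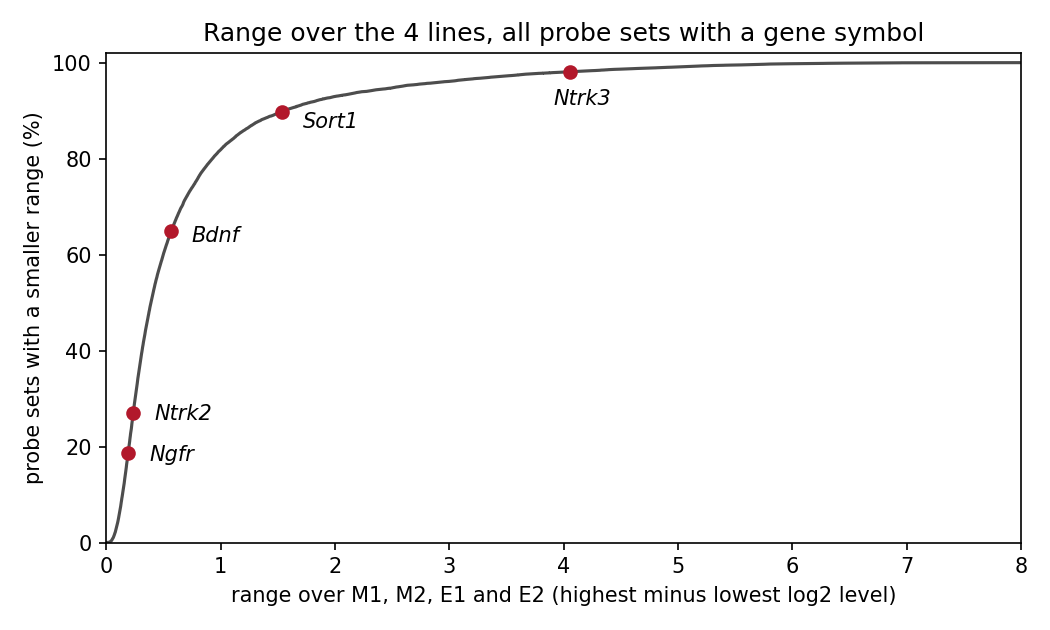
The curve gives, for each range of log2 levels over M1, M2, E1 and E2, the percentage of the 23410 probe sets with a gene symbol that had a smaller range, and points mark the 5 neurotrophin genes. Ngfr, at 0.19, and Ntrk2, at 0.23, lie below the median range of 0.39.

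Genes with the pattern of Ntrk3 or Sort1 were looked for among 21788 other probe sets with 1 symbol, by the root mean square difference of mean-centred log2 levels over the 4 lines. The closest to Ntrk3 were Parm1, a membrane protein, at a difference of 0.09, the kappa opioid receptor Oprk1 at 0.13 and the growth factor receptor Pdgfrb at 0.17. Parm1 was at 11.37 in M1, against 7.58 in M2, 7.25 in E1 and 7.41 in E2. Oprk1 was at 8.73, against 4.47, 4.41 and 4.56 in the same order, and Pdgfrb at 9.51, against 5.92, 5.86 and 6.03. The closest to Sort1 were Adgre5, an adhesion G protein-coupled receptor, at a difference of 0.06, the mitochondrial assembly factor Sdhaf1 at 0.07 and Lsm5, a subunit of an RNA-binding complex, at 0.08. Their levels in M2 were 7.80, 8.52 and 5.46, against 9.09, 9.81 and 6.62 in M1.

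Pdgfrb is also a fibroblast and pericyte marker, and another of these markers was high in M1. Pdgfrb was found by its match to Ntrk3, and the paper already reports Dcn (decorin) as upregulated in M1, so their count is a description. Of the 6 listed, Pdgfrb and decorin (Dcn) were at least 2-fold above every other line in M1, which 1.53% of all probe sets were, with Dcn at 10.08 in M1, against 5.74 in M2, 5.49 in E1 and 5.62 in E2. Thy1, Col1a1 and Rgs5 did not share this, at 6.82, 7.41 and 5.14 in M1, against 6.77, 7.54 and 5.28 in M2, 6.70, 7.54 and 5.25 in E1 and 6.88, 7.73 and 5.02 in E2. Pdgfra was highest in M2, at 10.20, with 8.71 in M1, 7.78 in E1 and 7.83 in E2. The signal of the 6 markers summed on the linear scale was 2549 in M1 and 1621 in M2, against 650 in E1 and 704 in E2, and its part in the level of Ntrk3 was not tested. The 6 neuronal markers lay between 4.92 and 6.90 in all lines. Of the glial markers, S100b and Gfap lay between 5.73 and 6.71 in all lines, while Sox10, a neural crest and glial transcription factor, was at 7.18 in M1 and 7.30 in M2, against 12.19 in E1 and 12.38 in E2, and Mbp at 8.17 and 7.66, against 9.44 and 9.58.

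Sort1 has 4 relatives in the list of other ligands and receptors, all of the Vps10 domain family of sorting receptors. Sorl1 was at 9.06 in M1 and 7.48 in M2, against 9.93 in E1 and 9.92 in E2, and M2 was 2.98-fold below M1, the nearest line. Sorcs2, which binds neurotrophin precursors together with Ngfr, was at 8.58 in M1 and 6.81 in M2, against 11.20 in E1 and 10.39 in E2. M2 was thus the lowest line by at least 2-fold for Sort1, Sorl1 and Sorcs2, a count made after their values were seen, while 0.842% of all probe sets had M2 this far below every other line. Unlike Sort1, both Sorl1 and Sorcs2 were also lower in M1 than in E1 and E2. Neither difference of the M from the E lines passed, with -1.66 for Sorl1 and -3.10 for Sorcs2 (limma adjusted p = 0.261 and 0.131). Sorcs1 lay between 5.09 and 5.29 and Sorcs3 between 5.56 and 5.66, below the median of all values in every line.

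**Figure D3:**
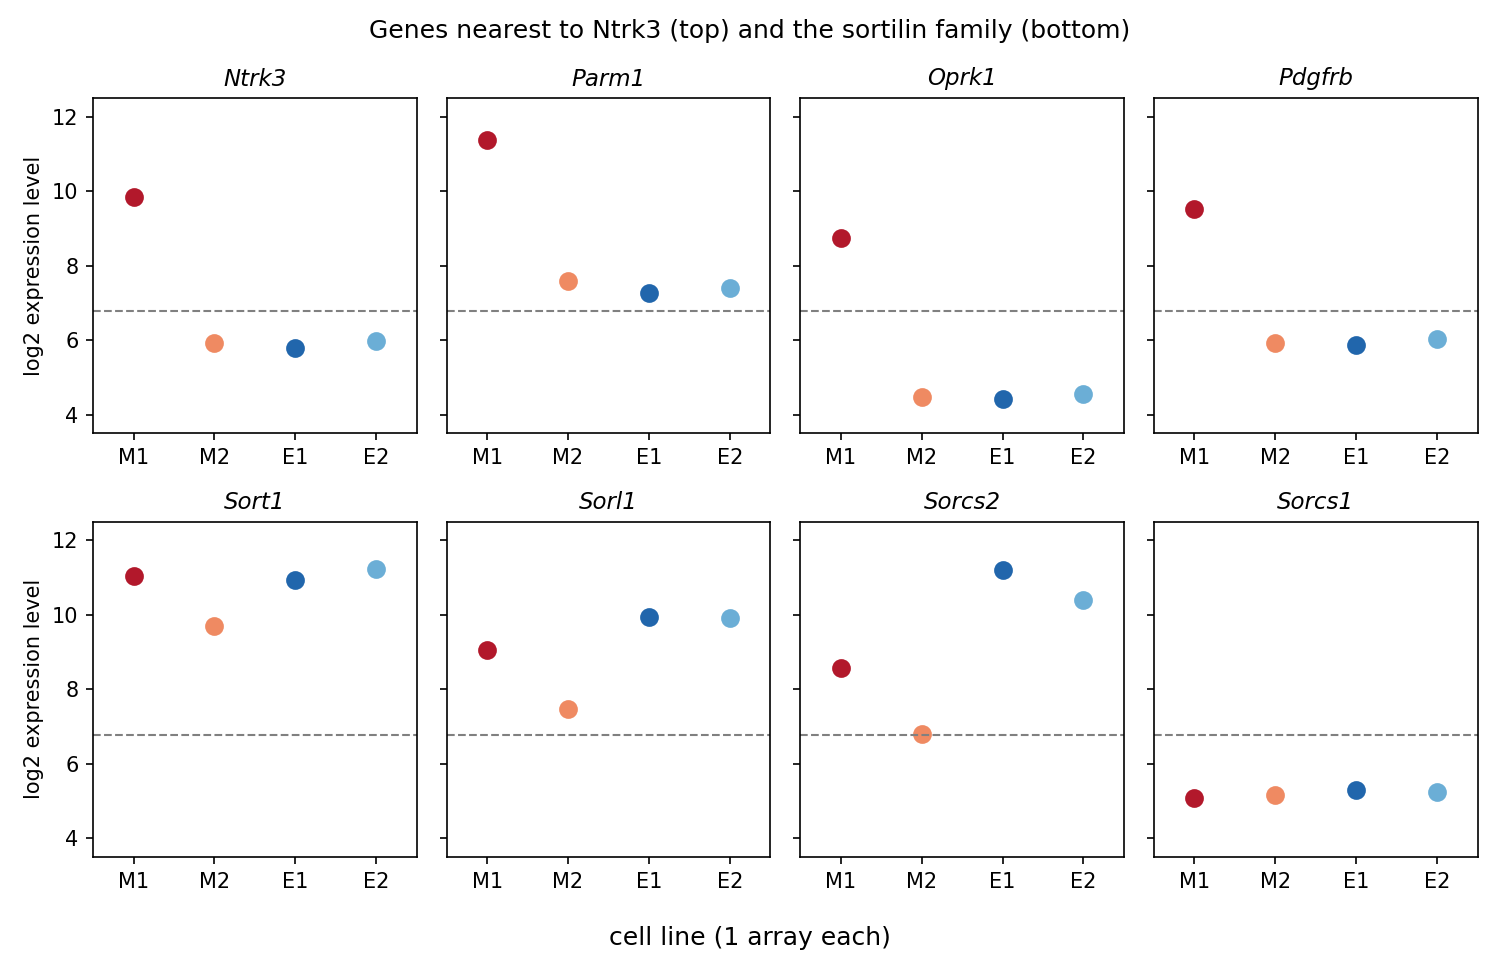
Points give the log2 expression level in M1, M2, E1 and E2, 1 array per line, of Ntrk3 and the 3 genes with the closest pattern (top) and of Sort1 with 3 of its relatives (bottom), and the dashed line is the median of all values, 6.78. M2 is the lowest line for Sort1, Sorl1 and Sorcs2, at 9.69, 7.48 and 6.81, while Sorcs1 lies between 5.09 and 5.29 in all lines.

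The other ligand that could be read, Ntf5 (neurotrophin-4), had levels of 6.61 and 6.49 in M1 and M2, against 6.76 and 6.71 in E1 and E2. Its levels were lower in both M lines than in both E lines, by 0.18 on average, which did not pass (limma adjusted p = 0.521). Of the 10 genes measured in the list of other ligands and receptors, which holds Ntf5 and the relatives of Sort1, limma called 0 between the types. At an unadjusted p under 0.05 were 2 (Sorl1 and Sorcs2). The 7 with a range under 2-fold over the lines include Nradd, Tnfrsf19, Rtn4r and Lingo1. The shares over all probe sets, 3.73%, 18% and 81.8%, do not set these counts apart. Ptprs, a receptor phosphatase that binds TrkC at synapses, was at 10.05 in M1 and 11.90 in M2, against 11.03 in E1 and 10.82 in E2. M1 was lowest, 0.76 below E2, and M2 was highest, 0.87 above E1. Both gaps exceed the 95th percentile between E1 and E2, 0.63, but not that between M1 and M2, 1.10. A relation of Ptprs to Ntrk3 was not tested.

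Across the 6 lists of pathway genes, with 66 of 73 genes measured by 69 probe sets, limma called 1 probe set higher and 6 lower in the M lines, against the 1.72% and 2.02% of all 23410 probe sets. The median difference over the 69 was -0.02, and 0.00 over all probe sets. All 7 calls were lost without E1 and without E2, where limma called 0 of all probe sets (2579 and 2651 at an unadjusted p under 0.05).

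Of the adaptors that carry the Trk signal, limma called 1 of 17 probe sets higher and 1 lower in the M lines. Over all probe sets, 1.72% were higher and 2.02% lower. Within 2-fold over the lines lay 14 of the 17, a share near the 81.8% of all probe sets that did. Plcg1, a phospholipase that Trk receptors phosphorylate, was at 10.76 in M1 and 10.69 in M2, against 9.96 in E1 and 9.92 in E2, and was higher in the M lines by 0.78 (limma adjusted p = 0.0498), a call at the threshold that held in 1 of 7 other settings without a line left out. The docking protein Irs1 was lower in the M lines by its brighter probe set, at 9.61 in M1 and 9.82 in M2, against 10.82 in E1 and 11.11 in E2 (limma adjusted p = 0.0468), which held in 2 of those 7 settings. Its dimmer probe set differed by -1.30 and did not pass (limma adjusted p = 0.0614). Gab1, another docking protein, was at 9.86 in M1 and 8.76 in M2, against 11.32 in E1 and 11.13 in E2, and did not pass (limma adjusted p = 0.119). Shc1 and Grb2, which link Trk receptors to Ras, were at 11.36 and 8.60 in M1, 11.08 and 8.68 in M2, 10.96 and 8.62 in E1, and 10.84 and 8.46 in E2. In the list of Ngfr adaptors and of the proteases that cleave it, limma called 0 of 11 probe sets, with 1 at an unadjusted p under 0.05, and 10 lay within 2-fold over the lines, counts that the shares over all probe sets, 3.73%, 18% and 81.8%, do not set apart. The unadjusted p under 0.05 was that of Maged1, at 11.38 in M1 and 11.48 in M2, against 10.82 in E1 and 10.55 in E2. It did not pass (limma adjusted p = 0.0992). Adam17, which sheds the outer part of Ngfr, ranged more than 2-fold over the lines. It was at 10.19 in M1 and 10.98 in M2, against 11.45 in E1 and 10.98 in E2.

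Among proteases that can cut neurotrophin precursors, Pcsk6 fell in the M lines. It was at 6.56 in M1 and 6.88 in M2, against 11.83 in E1 and 11.53 in E2, a difference of -4.96 with an interval from -5.48 to -4.44 (limma adjusted p = 0.0031). The level of Pcsk6 in M1 lay below the median of all values, and its difference was -4.85 with such values raised to that median. Furin, which cuts the same precursors inside the cell, was at 11.09 in M1 and 10.53 in M2, against 10.93 in E1 and 10.76 in E2. Mmp3 and the plasminogen activators had higher values in the M lines without a call. Mmp3 was at 8.44 in M1 and 10.84 in M2, against 5.05 in E1 and 5.32 in E2 (limma adjusted p = 0.0987). The activators Plat and Plau were at 9.01 and 7.33 in M1 and 7.89 and 9.13 in M2, against 6.32 and 5.71 in E1 and 6.19 and 5.68 in E2 (limma adjusted p = 0.0936 and 0.162), so that Plat was highest in M1, by 2.17-fold over M2, and Plau in M2. Plasminogen itself (Plg) lay between 6.52 and 6.82.

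Among the 6 pathway lists, transcripts that neurotrophins and other growth factors induce had most calls. Of 11 probe sets, 3 were lower in the M lines and 0 higher, against 2.02% and 1.72% of all 23410 probe sets. The median difference was -0.87, and 0.00 over all probe sets. The orphan nuclear receptor Nr4a1 was at 8.06 in M1 and 7.10 in M2, against 12.62 in E1 and 11.70 in E2 (limma adjusted p = 0.0281). Dusp6, an ERK phosphatase, was at 11.57 and 11.75 in M1 and M2, against 13.21 and 13.31 in E1 and E2 (limma adjusted p = 0.0143), and the feedback inhibitor Spry4 at 9.00 and 9.40, against 11.51 and 11.39 (limma adjusted p = 0.0154). All values of these 3 genes lay above the median of all values, and their differences of -4.58, -1.60 and -2.25 were the same with lower values of other probe sets raised to that median, where limma did not call them (adjusted p = 0.212, 0.0925 and 0.138). Of the 7 other settings without a line left out, Nr4a1 passed in 6, and Dusp6 and Spry4 in 5 each. With the clone number as a replicate block, Dusp6 and Spry4 did not pass (limma adjusted p = 0.0636 and 0.078). The Spry4 relative Spry2 was lowest in M1, at 8.95, with 10.35 in M2, 10.69 in E1 and 10.34 in E2. Vgf, a transcript that neurotrophins are known to induce, was at 7.91 in M1 and 9.16 in M2, against 6.71 in E1 and 6.90 in E2 and did not pass (limma adjusted p = 0.174), nor did Fosl1, at 10.08 and 12.71, against 7.43 and 7.96 (limma adjusted p = 0.164). These transcripts respond to many growth factors, and the media differed in epidermal growth factor and serum, whose part in these levels cannot be told apart from cell type.

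The GDNF family, a separate group of neurotrophic ligands that signal through Ret, was read beside the neurotrophins. Artn was lower in the M lines, at 6.58 in M1 and 6.50 in M2, against 7.80 in E1 and 7.73 in E2 (limma adjusted p = 0.0186). Both M values lay below the median of all values. The difference was -1.23 as deposited and -0.99 with values below that median raised to it. The co-receptor Gfra2 was at 10.22 in M1 and 11.77 in M2, against 7.57 in E1 and 7.79 in E2, which did not pass (limma adjusted p = 0.079). Ret itself lay between 6.23 and 6.65. In the list, 7 of 9 probe sets lay within 2-fold over the lines, while 81.8% of all probe sets did.

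**Figure D4:**
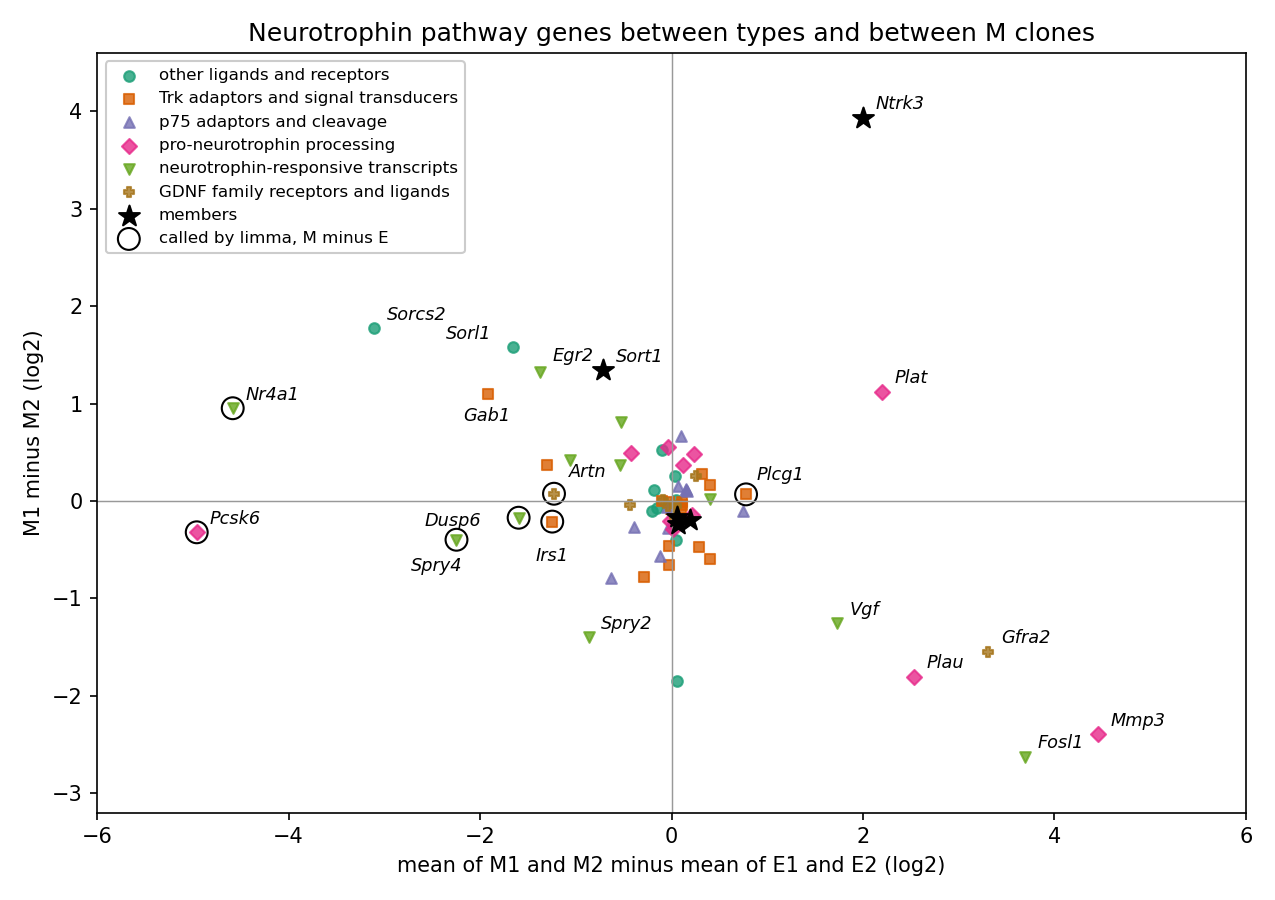
Each point is a probe set of the 6 pathway lists or a neurotrophin gene (stars), with the mean log2 difference of M1 and M2 from E1 and E2 on the horizontal axis and that of M1 from M2 on the vertical axis, and circles mark the 7 that limma called between the types. Ntrk3, at 3.94 above M2 in M1, is the highest point, and the called probe sets other than Nr4a1 lie within 0.40 of equal levels in M1 and M2.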

How the data were processed

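RNA of the 4 lines was hybridised to Affymetrix MoGene 1.0 ST arrays, once per line. The deposited values are log2 levels that the authors normalized, from 2.28 to 14.5. Raw files were exported from the scanner software per the methods, and the labels list Partek. Background correction, normalization, summarization and the build are not given in the sources used here. The values were used as deposited. Genes were named through the platform annotation, with 21789 probe sets under 1 symbol, 1621 under several and 12146 under none. Members and listed genes were looked up among those with 1 symbol alone, and 1 listed gene was matched by its identifier. The M lines were compared with the E lines in limma 3.58.1 (R 4.3.3, lmFit and eBayes, 2 residual degrees of freedom) over all 23410 probe sets with a symbol, adjusted by the method of Benjamini and Hochberg at 0.05, with 95% intervals for single probe sets. Nothing states separate cultures of a line, so p-values rest on how far these clones differ, which may be technical in part. Single lines were compared by their difference, with bounds of 2-fold and 10-fold. The genes, lists and tests were chosen with earlier results of these data known. The text names all members, pathway genes called by limma or with M1 2-fold outside the other lines (up to 4 a list), Ntf5, and the 3 closest patterns of each member with a range of at least 1. Other genes named, such as those in which M2 stood apart and the even members of lists, were chosen after their values were seen. Promoter windows came from RefSeq. The fit was tested on simulated data. Alternatives were other scalings, a floor, a filter, a trend, a block, all probe sets and leaving out each line.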

Additional observations from a re-analysis of the deposited data

How the results depend on the processing

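Settings moved the counts called, and leaving out a line also changed the sign of some small differences. Between the types, limma called 874 probe sets, 223 with values raised to a floor at the median of all values, 319 with the clone number as a replicate block, and 0 to 1879 when a line was left out. The clone numbers do not pair the lines, as the deviations of same-numbered lines had r = -0.04 across probe sets. Of the 4 tested neurotrophin genes, the count called was 0 under these settings, and 0 to 1 with a line left out, where the 1 was Sort1 without M1, in a fit of M2, a single array, against E1 and E2 that called 1761 of 23410 probe sets. The count of pathway probe sets lower in the M lines was 2 with the floor and 2 with the replicate block, and 0 to 10 with a line left out. The count higher in the M lines was 0 with arrays centred on their medians, the floor, the filter on dim probe sets, the intensity trend, the replicate block and all probe sets, and 0 to 6 with a line left out. Pcsk6 and Artn passed with the floor, and Pcsk6 and Nr4a1 with the block. The level of Ntrk3 in M1 above the mean of the other lines was 3.906 to 3.997 when a line was left out and 3.07 with the floor, which also gave 3.07 above M2. The filter on dim probe sets removed Ntrk2 and kept Ntrk3 through its level in M1. Differences of the M from the E lines took the other sign for Bdnf without E2 (-0.086, and 0.469 without E1), for Ntrk2 without M2 (-0.0447, and 0.190 without M1) and for Ngfr without M2 (-0.0284, and 0.138 without M1). The cause of these changes was not tested. Where signals lie near the unknown background, the true fold cannot be read. Examples are Ntrk2, Sorcs1, Ntrk3 outside M1, Artn in the M lines and Pcsk6 in M1.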
